A study of Mus musculus with 5 samples.

Results

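The binding of IRF4 and IRF8 was examined at 10 genes that encode transcription factors of the B lineage other than Pax5 and Bach2: Ebf1, Pou2af1, Foxo1, Foxp1, Ikzf1, Ikzf3, Ets1, Etv6, Spib and Spi1. A peak was counted for a gene when its centre lay in the gene body or within 50 kb of it, in GENCODE M1 on the mm9 assembly, where Spi1 carries its older symbol Sfpi1. This rule found 36 of the 5590 intervals of the series, and they merged into 26 separate places when intervals of different lists that overlapped by at least 1 bp were joined. The rule used the positions of genes and peaks and no tag values.

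IRF4 and IRF8 are related DNA-binding proteins that bind weakly alone and mostly act with a partner. With the ETS proteins PU.1, the product of Spi1, or Spi-B, the product of Spib, they bind a composite ETS-IRF element (EICE). With AP-1 proteins such as BATF they bind composite AP-1-IRF elements (AICE). On the interferon-stimulated response element (ISRE), a pair of GAAA half-sites, they bind as dimers or with other members of the family. The 10 genes therefore include partners of these factors, their relatives, and regulators that set up and keep B cell identity.

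The series held 5 groups of 1 chromatin immunoprecipitation sequencing (ChIP-seq) library each, all from wild-type C57BL/6 mice. In 4 of them, naive B cells of the spleen were cultured with lipopolysaccharide (LPS) at 10 µg/ml, and the chromatin was precipitated with antibody M-17 against IRF4 after 72 h or 48 h, or with antibody C-19 against IRF8 after 72 h or 48 h. In the other, germinal centre (GC) B cells were sorted on day 13 after immunisation with NP-KLH and precipitated with antibody C-19 against IRF8. How many mice gave the cells of a library is not given in the sources used here, and with 1 library a group, no comparison between groups rests on replicates. The lists held 898 IRF4 peaks at 72 h, 1573 IRF4 peaks at 48 h, 1059 IRF8 peaks at 72 h, 234 IRF8 peaks at 48 h and 1826 IRF8 intervals in GC B cells. The LPS libraries had 3065426 to 4375858 tags, of which 0.18% to 0.82% fell in peaks. The IRF8 library at 48 h had the lowest of these shares, and the header of the IRF8 72 h list names a tag directory marked rep2, with no statement in the sources used here of whether that is a second library. The GC list gives positions without a signal and was called with another program, so cell type and caller cannot be told apart in what follows. Peak lists do not measure expression, and the identity of the cells was taken from the labels.

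The sequences that carry the elements at these genes are printed here from the mm9 genome, 5′ to 3′, with the element in capitals. The EICE was searched as GGAANNGAAA, the ISRE core as GAAANNGAAA and the AP-1 site as TGACTCA or TGAGTCA, reading both strands up to 100 bp to either side of the centre of a peak. The first pair of sequences comes from the places that were in more than 1 list and held an EICE or an ISRE. The other 9 show the remaining EICE and ISRE places and the AP-1 sites of an Ebf1 place and a Foxp1 place listed for IRF4 at both times. These 9 were chosen after their values were seen. On the minus strand the printed sequence is the reverse complement. A match on the opposite strand is in capitals where it stands, and each AP-1 site matches on both strands.
Ets1 intron, AP-1 site and EICE, chr9:32459977-32460059, plus strand: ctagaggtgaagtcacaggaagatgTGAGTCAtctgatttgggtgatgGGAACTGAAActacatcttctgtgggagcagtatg
Etv6 start, ISRE, chr6:133985715-133985744, minus strand: ctggaagagaGAAACTGAAAggcagaactg
Etv6 intron, a pair of ISRE matches, chr6:134175663-134175780, plus strand: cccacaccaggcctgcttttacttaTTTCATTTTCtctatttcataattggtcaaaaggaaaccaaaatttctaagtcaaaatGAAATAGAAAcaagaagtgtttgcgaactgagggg
Ebf1 intron, overlapping EICE and ISRE, chr11:44708475-44708540, plus strand: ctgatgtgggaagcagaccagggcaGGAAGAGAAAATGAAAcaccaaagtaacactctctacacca
Ebf1 intron, EICE, chr11:44578639-44578698, plus strand: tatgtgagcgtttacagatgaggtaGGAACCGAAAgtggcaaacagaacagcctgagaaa
Ebf1 intron, a pair of AP-1 sites, chr11:44592577-44592726, plus strand: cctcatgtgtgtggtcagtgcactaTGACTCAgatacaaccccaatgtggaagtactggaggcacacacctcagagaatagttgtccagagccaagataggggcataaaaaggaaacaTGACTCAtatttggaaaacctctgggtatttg
Foxp1 intron, AP-1 site, chr6:98942853-98942909, plus strand: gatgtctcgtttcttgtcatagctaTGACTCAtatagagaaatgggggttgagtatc
Foxp1 intron, EICE of a GC interval, chr6:98958256-98958315, plus strand: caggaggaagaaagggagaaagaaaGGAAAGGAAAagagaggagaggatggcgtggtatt
Etv6 intron, EICE of a GC interval, chr6:134170633-134170692, minus strand: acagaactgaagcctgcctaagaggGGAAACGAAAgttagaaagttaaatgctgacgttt
Upstream of Ikzf3, EICE of a GC interval, chr11:98413215-98413274, minus strand: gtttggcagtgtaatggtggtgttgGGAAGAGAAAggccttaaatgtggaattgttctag
Downstream of Ikzf3, ISRE of a GC interval, chr11:98320088-98320147, plus strand: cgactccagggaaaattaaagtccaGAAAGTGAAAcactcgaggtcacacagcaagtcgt

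At least 1 interval in some list was found at 8 of the genes, and Spi1 and Pou2af1 had none in any list. IRF4 was found at 6 of the 10 genes at 72 h, against 7.61% of the 22380 protein-coding genes by the same rule, and at 5 of 10 at 48 h, against 11.5%. IRF8 was found at 3 of 10 at 72 h, against 8.81%, and at 1 of 10 at 48 h, against 1.99%. In GC B cells IRF8 was found at 7 of 10, against 15.6%. Other rules lowered some of these counts. With LPS peaks of at least 32.6 tags, the median of the LPS lists together, IRF4 at 72 h was left at 2 of 10 genes, against 3.14% of all. In the gene body alone the GC list reached 4 of 10, against 4.35%, and by the nearest transcription start site within 50 kb 4 of 10, against 5.96%. In any of the 5 lists the share of all protein-coding genes was 28.1%, against 8 of these 10. Several of the genes are long, and a longer gene has more room for a peak. Among the 2883 protein-coding genes with a body of at least 84.8 kb, the median of the 10 genes, 36.4% had an interval in any list. The shares were 10.7%, 17.3%, 13.7%, 2.71% and 19.6% in the lists in the order above. Of the 10 genes only Ebf1, Ets1, Foxp1, Ikzf1 and Etv6 reach that length, and each had an interval in some list. Ebf1, Ets1, Foxp1 and Etv6 had an IRF4 peak at 72 h, and Ebf1, Ets1 and Foxp1 had one at 48 h. For IRF8 it was Ets1 and Etv6 at 72 h, Etv6 at 48 h, and all but Ets1 in GC B cells. All shares given here are descriptions of the lists, and the choice of the genes was not independent of earlier results from them.

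**Figure D1:**
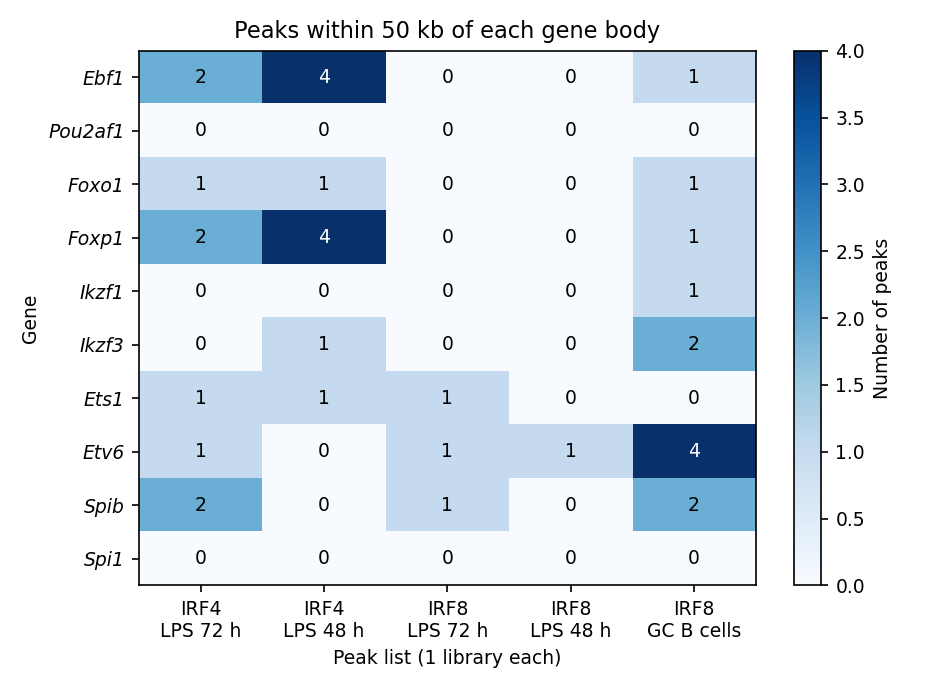
Number of peaks (colour and digits) within 50 kb of each gene body (rows) in each of the 5 peak lists (columns, 1 library each). Ebf1 and Foxp1 each have 4 IRF4 peaks at 48 h, Etv6 has 4 intervals in GC B cells, and the rows of Pou2af1 and Spi1 hold 0 in every list.

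The windows of the 10 genes spanned 2.4 Mb together. In them the IRF4 lists had 9 peaks at 72 h and 11 at 48 h, which is 3.74 and 4.57 peaks per Mb, against 0.481 and 0.836 per Mb over the windows of all protein-coding genes. The IRF8 lists had 3 peaks at 72 h and 1 at 48 h, or 1.25 and 0.416 per Mb, against 0.542 and 0.121. The GC list had 12 intervals, or 4.99 per Mb, against 0.980. No interval lay on multi-copy sequence. Of the 36 intervals, 24 lay inside the body of the gene they were counted for, and 28 had it as the protein-coding gene with the nearest transcription start site (TSS). The other 8 were those near Spib and Ikzf3, whose windows hold 6 and 5 other protein-coding genes.

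Of the 26 places, 14 were in LPS lists alone, 9 in the GC list alone and 3 in both. The 3 shared places were 3 of 17 LPS places and 3 of 12 GC places at these genes, where 13.3% of all LPS places and 19.7% of all GC places of the series were shared. Among the LPS lists, 13 places were listed for IRF4 alone, 2 for IRF8 alone and 2 for both factors. Over the series, 19.2% of IRF4 places were also in an IRF8 LPS list and 32.1% of IRF8 LPS places in an IRF4 list, against 2 of 15 and 2 of 4 here. IRF4 had 5 places at both times, 4 at 72 h alone and 6 at 48 h alone. Over the series, 60% of the 72 h places were in the 48 h list and 34.2% of the 48 h places in the 72 h list, against 5 of 9 and 5 of 11 here. No difference from the whole lists was tested. A place that is not in a list had no peak called there; how many tags it had is not known. The lowest peak of each LPS list carried 18.6 normalised tags for IRF4 at 72 h, 23.6 for IRF4 at 48 h, 22.8 for IRF8 at 72 h and 20.6 for IRF8 at 48 h. Normalised tags are the authors' tag counts scaled to 10000000 tags per library.

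**Figure D2:**
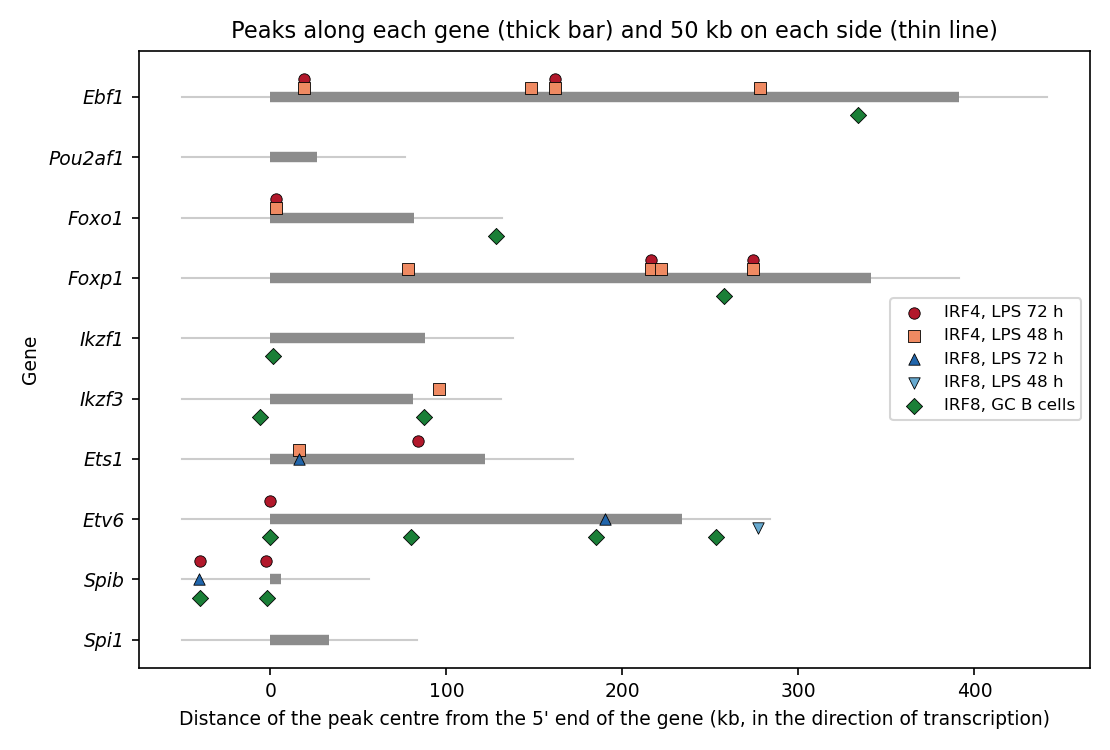
Position of every peak centre (points, by list) as the distance in kb from the 5′ end of each gene in the direction of transcription; the thick bar is the gene body and the thin line 50 kb on each side. IRF4 peaks of both times (circles at 72 h, squares at 48 h) lie in the bodies of Ebf1, Foxo1 and Foxp1 and no IRF8 peak of an LPS list lies there. The GC intervals (diamonds) lie at other places, in the bodies of Ebf1 and Foxp1 and 46.7 kb past the end of Foxo1.

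Ebf1, which encodes early B cell factor, the regulator that specifies the B lineage together with the E proteins, had 7 intervals at 5 places, all in introns of its 391 kb body on chromosome 11. All LPS peaks there were of IRF4. The first place, chr11:44449687-44450187 in the 72 h list, lay 14.7 kb from a TSS of the gene and carried 26.6 normalised tags at 72 h (95% Poisson interval 12.7 to 48.8), against 76.5 normalised tags at 48 h (95% interval 50 to 112). It ranked 579 of 898 peaks at 72 h and 95 of 1573 at 48 h, and its AP-1 site lay at -116 bp from the 72 h centre, just outside the motif window. The third place, chr11:44592453-44592953, with the pair of AP-1 sites printed above, had 23.9 tags in the 72 h list (10.9 to 45.4), against 58.9 in the 48 h list (36 to 90.9). At both places the 72 h value was the lower. The intervals of the 2 times did not overlap at the first place and overlapped between 36 and 45.4 tags at the third.

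The other IRF4 places of Ebf1 were in the 48 h list alone. The second place, chr11:44578418-44578918, had an EICE 1 bp from its centre and carried 55.9 tags (33.7 to 87.3). The fourth, chr11:44708311-44708811, carried 32.4 (16.2 to 57.9). There an EICE and an ISRE share 4 bases, so that GGAA and a pair of GAAA half-sites follow each other in 1 run. In GC B cells a single interval, chr11:44763693-44765119, lay in an intron 38.8 kb from the nearest TSS of Ebf1 and overlapped no LPS peak.

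Pou2af1, which encodes the B cell coactivator OBF-1 (OCA-B) of the OCT proteins, had no interval. The nearest peak of the IRF4 lists at 72 h and 48 h, of the IRF8 72 h list and of the GC list lay 183 kb from the gene body, nearest to Sik2. The window of Pou2af1 held 3 other protein-coding genes, and no interval lay in it with flanks of 100 kb either.

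Foxo1 encodes a forkhead factor that the PI3K-AKT pathway keeps out of the nucleus and that acts in early B cell development and in the GC dark zone. It had an intronic IRF4 place 3.24 kb from its TSS, chr3:52075251-52075751 in the 72 h list, with 34.5 tags at 72 h (18.4 to 59), against 41.2 tags at 48 h (22.5 to 69.1). The intervals of the 2 times overlapped, and neither peak held any of the motifs searched. The GC interval of Foxo1, chr3:52199815-52201591, was intergenic and lay 46.7 kb past the end of the gene.

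Foxp1 encodes a forkhead factor of early B cell development whose level is known to be lower in GC B cells than in naive B cells. It had 7 intervals at 5 places in its 341 kb body on chromosome 6, and all its LPS peaks were of IRF4. The fifth place from the 5′ end, chr6:98942662-98943162 in the 72 h list, was intronic and had the highest tag count of the 10 genes, with 42.5 tags at 72 h (24.3 to 69), against 103 tags at 48 h (71.8 to 143). It ranked 154 of 898 peaks at 72 h and 48 of 1573 at 48 h, and the AP-1 site printed above lay at -11 bp from its 48 h centre. Outside the motif window, the 48 h peak also held an EICE at 187 bp and an ISRE at -228 bp from that centre. The intervals of the 2 times did not overlap.

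The second place of Foxp1, chr6:99000412-99000912, had 29.2 tags in the 72 h list (14.6 to 52.3), against 55.9 in the 48 h list (33.7 to 87.3), with intervals that overlapped, and held no element within 100 bp. The other IRF4 places of Foxp1 were in the 48 h list alone. One lay 0.323 kb from an internal TSS, chr6:98993880-98994380, with 32.4 tags. The other, chr6:99138310-99138810, held an AP-1 site 39 bp from its centre and, outside the motif window, an EICE at -244 bp, and carried 26.5 tags. The GC interval, chr6:98957820-98958670, lay between the IRF4 places and overlapped none of them. Its EICE, printed above, stands in a run of A and G.

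Ikzf1 encodes Ikaros, a zinc finger factor of lymphocyte development. It had 1 interval, in GC B cells, chr11:11586138-11587003, a promoter interval 0.122 kb from a TSS of the gene. Over its whole length this interval held a PU.1-type ETS site, searched as GAGGAAGT. The site was in 2 of the 12 GC intervals at the 10 genes, the other lying past the end of Etv6, against 16.2% of all GC intervals. Ikzf3 encodes Aiolos, a relative of Ikaros that is most abundant in mature B cells and plasma cells. It had 3 intervals, none of them in its body. The GC interval chr11:98412696-98413662 lay 5.83 kb upstream of the start of Ikzf3 and held an EICE, but its nearest TSS was that of Zpbp2, at 0.687 kb. The GC interval chr11:98319036-98321040 lay 6.18 kb past the end of Ikzf3, held an ISRE and was 4.93 kb from the TSS of Grb7. The IRF4 48 h peak chr11:98311418-98311918 carried 35.3 tags (18.3 to 61.7), lay in an intron of Grb7 and held no element.

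Ets1, an ETS factor that holds back plasma cell differentiation, had 3 intervals at 2 places, both intronic, and no GC interval. The first, chr9:32459747-32460247 in the IRF4 48 h list, lay 16.2 kb from the TSS and was found for both factors, though at different times. It carried 50 IRF4 tags at 48 h (29.2 to 80.1) and 32.6 IRF8 tags at 72 h (15.6 to 60), with 95% intervals that overlapped. In the sequence printed above, 16 bases separate its AP-1 site from its EICE, so both kinds of element lie at the centre of the same peak. It was the only place of the 10 genes with both elements within 100 bp. The second place, chr9:32527594-32528094, was in the IRF4 72 h list alone with 26.6 tags (12.7 to 48.8).

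Etv6 encodes TEL, an ETS family repressor. It had 7 intervals at 6 places and was the only one of the 10 genes with intervals in 4 of the lists. Its promoter was listed for IRF4 at 72 h, chr6:133985489-133985989, with 26.6 tags (12.7 to 48.8), and for IRF8 in GC B cells, chr6:133985142-133986254. An ISRE lay at -9 bp from the centre of the IRF4 peak and at 32 bp from that of the GC interval, in or next to an annotated exon at the start of the gene. A further IRF8 peak at 72 h, chr6:134175527-134176027, was intronic, held the pair of ISRE matches printed above and carried 32.6 tags (15.6 to 60). The single IRF8 48 h peak at the 10 genes, chr6:134262651-134263151, was intergenic, 42.7 kb past the end of Etv6, held no element and carried 22.9 tags (11 to 42). The remaining 3 GC intervals of Etv6 lay in introns, 79.5 kb and 12.9 kb from a TSS, and 18.7 kb past its end, and the intronic one 12.9 kb from a TSS held an EICE.

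Spib encodes Spi-B, an ETS partner of IRF4 and IRF8. Its body of 6.08 kb held no peak, and 5 intervals lay upstream of it at 2 places that IRF4 72 h and GC B cells shared. The place closest to Spib, chr7:51789476-51789976, was 2.29 kb upstream of its start and also 0.167 kb from a TSS of Pold1, which encodes a DNA polymerase subunit. It carried 31.9 IRF4 tags at 72 h (16.5 to 55.7). The GC interval there was chr7:51788666-51790375. The other place, 40.2 kb upstream, lay 0.137 kb from the TSS of Napsa, which encodes an aspartic protease. It was the only place of the 10 genes in 3 lists, with 29.2 IRF4 tags at 72 h (14.6 to 52.3), 55.5 IRF8 tags at 72 h (32.3 to 88.8) and the GC interval chr7:51826768-51827947. Its IRF8 peak ranked 98 of 1059. Neither place held an EICE, an ISRE or an AP-1 site, and neither was in a 48 h list. Spib was not the nearest gene to any of the 5 intervals.

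Spi1 encodes PU.1, the ETS factor with which the EICE was first defined. It had no interval. The nearest peaks of the 4 LPS lists lay 409 to 432 kb from its body and were nearest to Nup160, and the nearest GC interval lay 581 kb away. Its window held 5 other protein-coding genes, and no interval lay in it with flanks of 100 kb either.

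**Figure D3:**
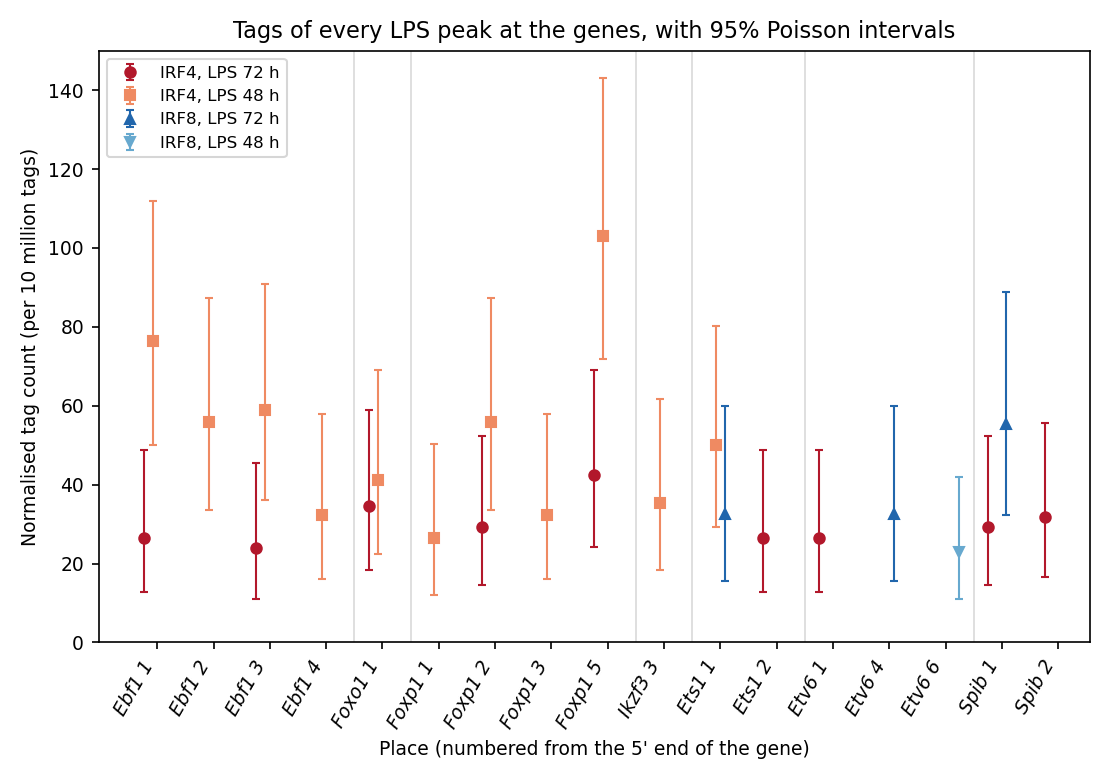
Normalised tag count (vertical axis, scaled to 10000000 tags per library) of each LPS peak at the 10 genes, by place (horizontal axis, numbered from the 5′ end of each gene; places of the GC list alone are left out), with 95% Poisson intervals from the whole tags of that library. The highest point is the fifth Foxp1 place at 48 h with 103 tags, and at all 5 places with IRF4 points of both times the 72 h point (circle) lies below the 48 h point (square).

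The IRF4 places at Ebf1, Foxo1 and Foxp1 that were listed at both times allowed a comparison of 72 h with 48 h. The ratio of 72 h over 48 h was 0.347 at the first Ebf1 place (95% interval 0.149 to 0.744), 0.406 at the third (0.163 to 0.933), 0.412 at the fifth Foxp1 place (0.213 to 0.765), 0.522 at the second (0.225 to 1.15) and 0.838 at Foxo1 (0.362 to 1.92). At 3 of the 5 places the 72 h value was at least 2-fold lower, against 13.1% of the 536 places that both IRF4 lists share. Over all of these places the median ratio was 0.765 and the middle range 0.601 to 0.978, and 78.5% of the places had a ratio below 1. Of the 536 places, 1.68% had a lower ratio than the first Ebf1 place, 5.60% than the third, and 6.34% than the fifth Foxp1 place.

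By an exact binomial test of the whole tags, two-sided and adjusted over the 536 places by the Benjamini-Hochberg method, none of the 5 passed 0.05, while 14 of all 536 places did. The adjusted p was 0.0839 at the first Ebf1 place, 0.241 at the third, 0.0679 at the fifth Foxp1 place, 0.508 at the second and 0.939 at Foxo1. The unadjusted p in the exact test was 0.00391, 0.0247, 0.00291, 0.0994 and 0.702 in the same order. The test compares 2 libraries, not 2 culture times, and the peaks at these 5 places rest on 9 to 35 whole tags each. The share of tags in peaks also differed between the libraries, 0.45% for IRF4 at 72 h and 0.82% for IRF4 at 48 h. When the libraries were scaled by the median ratio of the shared places, the ratio was 0.454 at the first Ebf1 place, 0.531 at the third, 0.539 at the fifth Foxp1 place and 0.683 at the second, and at Foxo1 it turned to 1.09. The adjusted p of the exact binomial test then rose to 0.443 at the first Ebf1 place, 0.827 at the third and 0.538 at the fifth Foxp1 place. Under that scaling 1 of the 5 places instead of 3 was at least 2-fold lower, against 3.54% of the 536 places.

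**Figure D4:**
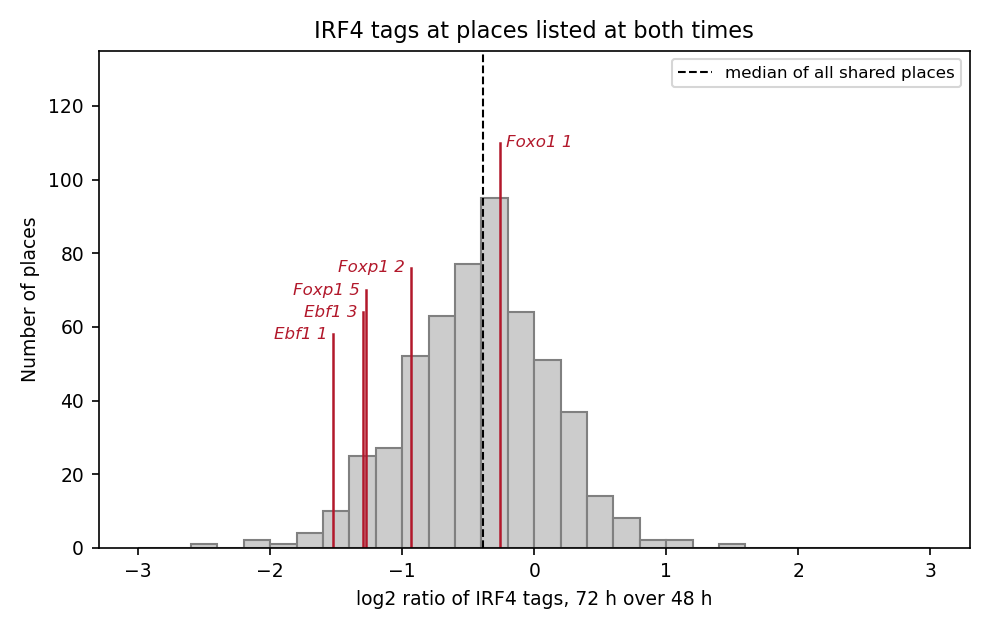
Number of places (vertical axis) by log2 ratio of normalised IRF4 tags at 72 h over 48 h (horizontal axis) for the 536 places in both IRF4 lists; the dashed line is their median and the red lines are the 5 places at Ebf1, Foxo1 and Foxp1. The lines of both Ebf1 places and both Foxp1 places stand left of the median, and that of Foxo1, at -0.26, right of it.

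IRF4 and IRF8 could be compared at the same time at 1 place. Upstream of Spib, beside Napsa, the ratio of IRF4 over IRF8 at 72 h was 0.527 (0.223 to 1.19), from 29.2 IRF4 tags and 55.5 IRF8 tags, with an adjusted p of 0.886 in the exact binomial test over 258 shared places. It was not 2-fold lower, as 3.88% of those places were, and the median ratio over them was 0.974. No place at the 10 genes was in both IRF8 LPS lists or in both 48 h lists.

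Among the 20 IRF4 peaks at the 10 genes, 6 held an AP-1 site within 100 bp of the centre, 3 an EICE and 2 an ISRE. The 20 peaks stood at 15 places, and a place listed at both times is counted at each. This holds for the AP-1 sites of the third Ebf1 place and the fifth Foxp1 place. By time, AP-1 was under 2 of 9 peaks at 72 h and 4 of 11 at 48 h, where all peaks of these lists held it in 18.5% and 28.7%. The EICE was under 0 of 9 at 72 h and 3 of 11 at 48 h, against 25.6% and 14.6% of all peaks of the lists. The ISRE was under 1 of 9 at 72 h and 1 of 11 at 48 h, against 7.22% and 4.54%. All 6 AP-1 peaks of IRF4 were in Ebf1, Foxp1 or Ets1. The 4 IRF8 LPS peaks comprised the Ets1 peak with EICE and AP-1, the intronic Etv6 peak with the ISRE, and the peaks near Napsa and past Etv6 with none. Over the whole IRF8 list at 72 h, 22.1% of peaks held an EICE, 12.1% an ISRE and 8.02% an AP-1 site, and over that at 48 h 19.5%, 6.19% and 11.1%. Of the 12 GC intervals, 3 held an EICE, 2 an ISRE and 0 an AP-1 site near the centre, against 7.34%, 13.5% and 5.81% of the whole list. GC intervals have no summit, so their centre is the middle of the interval. Over whole GC intervals, 4 of 12 held an EICE, against 23% of the list. The ISRE was then under 2 of 12, against 37.4%, and the AP-1 site under 1 of 12, against 23.8%. AICE1 and AICE2 are forms of the AICE with a fixed spacing between a GAAA half-site and the AP-1 site, and other spacings were not searched. Neither AICE1 nor AICE2 nor GAGGAAGT was within 100 bp of any of the 36 centres. Those 3 were under 0.478% to 3.64%, 1.62% to 3.54% and 4.42% to 9.14% of the LPS lists, and under 0.219%, 0.767% and 5.04% of the GC list.

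The tags at the 10 genes were set beside those of each whole list. The median was 29.2 tags over the 9 IRF4 peaks at 72 h and over that whole list alike, with 3 of 9 above it. Over the 11 IRF4 peaks at 48 h it was 50, against 38.3 for the whole list, with 7 of 11 above the list median. Of the IRF8 peaks, 1 of 3 at 72 h and 0 of 1 at 48 h lay above the medians of 32.6 and 27.4 tags.

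A further 30 genes of the same families, or of other B cell transcription factors, were counted by the same rule. Of these, 16 had an interval in any list, against 28.1% of all protein-coding genes. For IRF4 it was 5 of 30 at 72 h, against 7.61% of all, and 9 of 30 at 48 h, against 11.5%. For IRF8 it was 6 of 30 at 72 h, against 8.81%, and 2 of 30 at 48 h, against 1.99%. In GC B cells it was 7 of 30, against 15.6%. The family members without one included Ikzf2, Ikzf4, Foxo3, Foxp4, Ebf2, Ebf3, Ets2, Erg and Spic. Pou2f2, which encodes OCT-2, the partner of the Pou2af1 product, was the only one of the 30 with a peak in all 4 LPS lists. Its intronic IRF4 peak, 1.76 kb from a TSS, carried 39.8 tags at 72 h and 108.9 at 48 h, and an IRF8 peak beside it, 2.76 to 2.8 kb from a TSS, carried 65.2 tags at 72 h and 27.4 at 48 h. The IRF4 and IRF8 peaks there did not overlap. The share of all protein-coding genes with a peak in all 4 LPS lists is not given here.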

How the data were processed

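The genes and lists were chosen with earlier results of these data known. ChIP-seq libraries of 5 groups, 1 each, were used as deposited peak lists on mm9 (NCBIM37 here). For the 4 LPS lists the authors ran HOMER findPeaks in factor mode, per the file headers, with peaks of 500 bp at least 1000 bp apart, at most 1 tag per base, a false discovery rate of 0.001, and at least 4-fold over the surrounding 10000 bp at a local Poisson p of at most 0.0001. The deposited signal is a peak's tag count after scaling each library to 10000000 tags. The deposited findPeaks score, the ratios (fold over the local region and clonal fold), the focus ratio, a fraction, and the p-value of each peak are the authors' and were not used. The GC list gives positions only; it was called with MACS per the series' design text, with threshold and control not given in the sources used here. BWA and Bowtie2 appear in the submitters' processing notes with no role; the series' design text names other aligners, so the aligner is not settled here.

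Dividing out the scaling gave whole tags within 0.05 at 100% of LPS peaks. From these came exact 95% Poisson intervals, and exact (Clopper-Pearson) intervals and exact binomial tests of tag ratios over all shared places. Both cover counting error only. A promoter interval has its centre within 1000 bp of a TSS. Places given with values were the highest LPS place of each gene, those in 3 lists, those in the GC list and an LPS list, and those in 2 or more lists with an EICE, ISRE or AICE; the rest were added after their values were seen, since they were few. Copy number was checked with words of 24 bases. The test was checked on simulated tags. Unlike the places tested, these had no overall shift between the libraries and did not have to be listed in both. Python 3.11.15, SciPy 1.17.1, pandas 2.3.3 and pysam 0.24.0 were used. Windows, thresholds, overlaps and scalings were varied.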

Additional observations from a re-analysis of the deposited data

How the results depend on the processing

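The overlap rule did not change the 9 places that were in more than 1 list. Leaving out the IRF8 72 h list or the IRF8 48 h list left 25 of 26 places each, a choice made after the data were seen. Without the IRF8 72 h list 8 places were in more than 1 list, and without the IRF8 48 h list 9 were. Windows of 10 kb or no flank, the nearest TSS within 50 kb, and LPS peaks at or above 32.6 tags each left 0 peaks and 0 genes for IRF8 at 48 h, in place of 1 (0.483% to 0.862% of all protein-coding genes under these rules). At that tag minimum IRF4 at 72 h had 2 peaks at 2 genes, in place of 9 at 6. In the gene body alone the GC list had 5 intervals at 4 genes, and by the nearest TSS 6 at 4 genes, in place of 12 at 7. Over whole intervals the EICE was under 7 of 24 LPS peaks (19% to 30% of each whole list) and AP-1 under 1 of 12 GC intervals (23.8% of the list). Within 50 bp of the centre the EICE and the ISRE were under 1 GC interval each. The share of the whole GC list in that narrower window is not given here, so these counts have nothing to be set against. The Foxo1 ratio of IRF4 tags turned to 1.09 when scaled by the median of shared places. The causes were not tested, beyond the narrower window or shorter list itself. Leaving out multi-copy peaks removed none. No paired analysis was possible because each group had 1 library. The depth of 9 to 35 whole tags a peak left wide intervals, from 0.149 to 0.744 at the first Ebf1 place.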

Other observations

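Among the 30 related genes, a few beyond Pou2f2, chosen after their values were seen, had peaks in several lists. Fli1, an ETS gene that neighbours Ets1, had an intronic IRF4 peak at 48 h, chr9:32318173-32318673, that held an EICE and an AP-1 site and carried 47.1 tags. Etv3, an ETS repressor gene, had an AP-1 peak 37.3 kb from its TSS that was listed at 72 h for both factors, with 37.2 IRF4 tags and 45.7 IRF8 tags. Bcl11a, a zinc finger gene of early B cell development, had a place 42.8 kb from its TSS listed for both factors at 72 h, with 34.5 IRF4 tags and 32.6 IRF8 tags and no element. No test was made of these values.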
